A study of Mus with 6 samples.

Results

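Glutamate, GABA and glycine are the main fast transmitters of the brain, and the 40 genes described here encode subunits of their receptors. The genes were chosen by symbol from the deposited table of normalized counts, which held all 40 among 18887 rows. They comprise 17 subunits of ionotropic glutamate receptors (AMPA, NMDA, kainate and delta), 7 metabotropic glutamate receptors, 10 GABA-A subunits, 2 GABA-B subunits and 4 glycine receptor subunits. Other subunits of these families are not analysed here.

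Ionotropic receptors are ion channels built from several subunits, and the subunit mix sets their kinetics and pharmacology. Metabotropic glutamate receptors and the GABA-B receptor act through G proteins. Neurons carry most of these receptors, but glial cells have a set of their own. Of the 40 genes, 10 were marked as known from astrocytes or Bergmann glia: Grm3, Grm5, Grin2c, Gabra2, Gabrb1, Gabrg1, Gabbr1, Gabbr2, Gria1 and Gria4. Neurons express most of these 10 as well, so the mark does not give a transcript's source.

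The samples were RiboTag immunoprecipitates, in which a tagged ribosomal protein is pulled down with the mRNA on its ribosomes. They comprised 4 libraries labelled IRKO with the genotype KO and 2 libraries labelled MG with the genotype Ctr, called controls here. The labels give mouse whole brain as the tissue and microglia as the cell type for all 6, and the title of the study concerns loss of insulin signalling in microglia, so IRKO is read as knockout of the insulin receptor. Not given in the sources used here were the Cre driver, the strain, age and sex, the number of animals behind each precipitate, and whether the controls carry the same Cre and RiboTag alleles. Since nothing states that the replicates came from separate animals, the p-values reflect a spread between libraries that may be technical.

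Each library held 13858978 to 14568773 reads in IRKO and 16883098 or 19010680 in the controls. Insr, the gene for the insulin receptor, stood at 357, 366, 290.5 and 339.9 in the IRKO libraries, against 565 and 532 in the controls. Every IRKO library was below both controls, and the log2 change was −0.70 ± 0.135 (SE, adjusted p = 0.00211). Counts per gene do not show whether those reads came from a deleted part. Markers of several cell types moved with the groups. All 17 homeostatic microglia markers rose, with a summed normalized count of 185655 to 263224 in IRKO and 70627 to 88216 in the controls. All 10 astrocyte markers fell, and their sum was 20888 to 28943 in IRKO and 408628 to 513972 in the controls. The log2 changes of the astrocyte markers ran from −4.77 to −3.20. Among 12 neuron markers 10 rose and 2 did not pass, with a sum of 68423 to 87479 in IRKO and 36116 to 46232 in the controls, so neuronal transcripts were read in all 6 precipitates. Among 6 oligodendrocyte precursor markers 1 rose and 3 fell, with a sum of 3727 to 5354 in IRKO and 27922 to 30999 in the controls. Most of the control sum was Cspg5, with a mean of 1904 in IRKO and 23572 in the controls. Olig1 and Olig2 fell too, Pdgfra rose 3.33-fold, and Cspg4 and Gpr17 did not pass, so the sum does not stand for the whole list. Both tested Bergmann glia markers, which are shared with astrocytes, fell. Of the oligodendrocyte markers 4 of 6 rose and 1 fell, and 3 of 5 endothelial markers rose and 1 fell. No tested marker was at 0. The part of these shifts in the receptor results was not tested, and in such bulk samples fewer cells of a type and less RNA per cell cannot be told apart.

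The receptor subunits divided into a large group with higher values in IRKO and a small group with lower values, of which some were lower by far. Of the 36 subunits with a normalized count of at least 10 in at least 2 libraries, 22 rose and 7 fell in IRKO as deposited, and 7 did not pass limma's test at an adjusted p of 0.05. Thus 29 of 36 passed, beside 55.6% of all 14698 tested genes. The rises were 61.1% of the tested subunits, beside 26.6% of all genes, and the falls 19.4%, beside 29%. The largest falls were in Grin2c (14.9-fold), Grm3 (13.7-fold), Gabrg1 (6.46-fold), Gabbr1 (3.19-fold) and Gabrb1 (2.16-fold), all of them marked as known from glia. The largest rise was in Gabra5 (3.21-fold). The 4 IRKO values lay above both controls for 21 subunits and below both for 8, which is 58.3% and 22.2% of them beside 32.8% and 34.8% of all tested genes (67.6% for either direction).

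The direction of the rises depended on how libraries were scaled. The deposited values make the median gene nearly equal between groups, with a median log2 change of 0.017 over all tested genes. The median over the tested subunits was 0.68 as deposited and −0.94 with each library scaled to an equal mean of the microglia markers, a scaling that moved the median of all genes to −1.59. In that scaling 28 subunits were lower in IRKO, none was higher and 8 did not pass, beside 84.2% of all genes lower and 0.272% higher. This scaling divides each library by a single factor, so it moved all genes down by nearly the same amount. The 7 falls could therefore only stay negative, and they passed in both scalings. Of the 22 rises 21 took a negative sign and only Gabra5 stayed above 0, at 0.064 without passing the test. Relative to the median of all genes, 25 of the 36 subunits were above it in either scaling, which follows from the shared shift and is not a separate result. Fold changes below are as deposited unless the scaling is named, on the scale log2(normalized count + 1), which understates changes of genes with low counts.

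**Figure D1:**
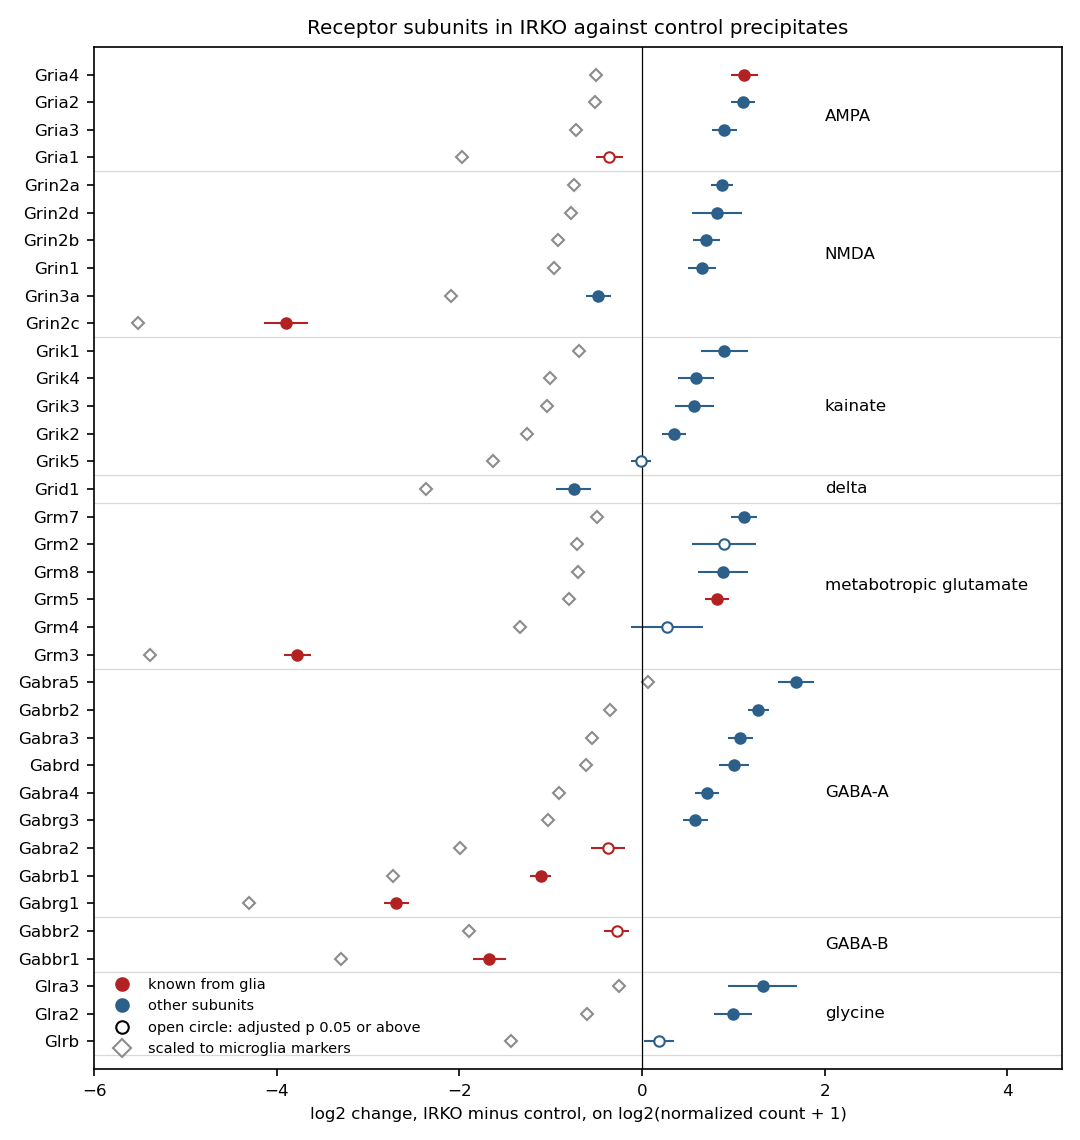
Log2 change of each tested subunit, IRKO minus control, as deposited (circles, bars are the standard error) and with libraries scaled to the microglia markers (open diamonds), by receptor class. Red marks the 10 subunits known from glia, and open circles did not pass limma's test. Grin2c and Grm3 lie near −4 as deposited, most blue points lie between 0.35 and 1.68, and all diamonds but that of Gabra5 lie below 0.

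Among the 10 subunits marked as glial, 5 fell, 2 rose and 3 did not pass, and their median log2 change was −0.74 as deposited (−2.36 scaled to the microglia markers). Among the 26 other tested subunits 20 rose, 2 fell and 4 did not pass, with a median of 0.85 as deposited and −0.76 in the other scaling. The normalized counts of the 10 glial subunits summed to 11121 to 14400.1 in IRKO and 28179 to 37516 in the controls. Those of the other 30 subunits summed to 23173 to 25785 in IRKO and 14793 to 16492 in the controls, so as deposited the sums of the marked and unmarked subunits moved in opposite directions. The marks come from textbook knowledge of cell types whose markers moved with the groups. They were chosen with earlier results of these data known, so the split is not independent of the values. The difference between marked and unmarked subunits was not tested.

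Among the 4 AMPA receptor subunits, which carry most fast excitatory transmission, 3 rose as deposited and Gria1 did not pass, with a class median of 1.00 as deposited and −0.62 scaled to the microglia markers. Gria2 encodes GluA2, the subunit that limits calcium entry through the channel. Its normalized counts were 3677, 4158, 3294 and 3299.8 in the IRKO libraries, against 1584 and 1759 in the controls. The groups did not overlap, and Gria2 rose 2.15-fold (log2 change 1.10 ± 0.130, SE, limma adjusted p = 0.000121). Gria3, a frequent partner of Gria2, had 1164, 1291, 986 and 1086 in the IRKO libraries, against 654 and 558 in the controls, and rose 1.86-fold (adjusted p = 0.000545).

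Gria1 and Gria4 are the AMPA subunits of Bergmann glia, the radial astrocytes of the cerebellum, and both are also neuronal. They did not move together. Gria4 had 800.4, 680.1, 705 and 758 in the IRKO libraries, against 289 and 395 in the controls. All IRKO values were above both controls, and Gria4 rose 2.17-fold (adjusted p = 0.000252). Gria1 had 1813, 2152, 2577 and 2299 in the IRKO libraries, against 2678 and 2944 in the controls. All 4 IRKO values were below both controls, but the log2 change of −0.36 ± 0.146 did not pass (adjusted p = 0.0625), and it passed without IRKO replicate 3 (−0.43, adjusted p = 0.0285). The Bergmann glia markers Gdf10 and Hopx, which are shared with astrocytes, changed by −3.35 and −3.30 on the log2 scale, inside the range of the astrocyte markers.

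NMDA receptors pair the obligatory Grin1 subunit with Grin2 or Grin3 subunits, and they act as detectors of coincident activity. Of 6 tested subunits 4 rose and 2 fell as deposited, with a median log2 change of 0.68 (−0.94 scaled to the microglia markers). Grin2c, which encodes the GluN2C subunit of cerebellar granule cells and astrocytes, had 298, 394, 430.4 and 384 in the IRKO libraries, against 7785 and 4015 in the controls. Every IRKO library was below both controls, which themselves differed, and Grin2c fell 14.9-fold (log2 change −3.90 ± 0.245, SE, adjusted p = 2.51e-06). Without control replicate 1 the log2 change was −3.42, and without control replicate 2 it was −4.38.

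The other Grin2 genes stood on the opposite side as deposited. Grin2a, the GluN2A subunit of mature synapses, had 1050.0, 1271, 1132 and 1260.3 in the IRKO libraries, against 675 and 609 in the controls. It rose 1.83-fold without overlap between groups (adjusted p = 0.000341). Grin2b, the GluN2B subunit that predominates early in development, averaged 2019 ± 294 in IRKO and 1234 ± 148 in the controls (SD, n = 4 and 2), and Grin1 averaged 3305 ± 279 in IRKO and 2120.1 ± 485 in the controls (SD, n = 4 and 2). Grin2b and Grin1 rose 1.63-fold and 1.57-fold (adjusted p = 0.00354 and 0.00507), and Grin1 lost its call without control replicate 1 (0.42, adjusted p = 0.0682). Grin2d, found in interneurons and the brainstem, averaged 154 ± 44.3 in IRKO and 84.1 ± 13.9 in the controls (SD, n = 4 and 2). It rose 1.77-fold (adjusted p = 0.0285), a call lost without either control and without IRKO replicates 3 or 4 (adjusted p = 0.0632 to 0.186). All 4 of these rises had negative changes when scaled to the microglia markers, from −0.96 for Grin1 to −0.75 for Grin2a.

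Grin3a encodes GluN3A, which lowers calcium entry and can bind glycine. It had 291, 288, 338 and 349 in the IRKO libraries, against 436 and 442 in the controls. The groups were apart by little, at a log2 change of −0.48 ± 0.135 (SE, adjusted p = 0.0144), and the call was lost without either control (adjusted p = 0.0673 and 0.0749) and under quantile normalization (−0.35, adjusted p = 0.0564). Grin3b, known from motor neurons, was below the filter, with 0, 3, 5 and 2 reads in the IRKO libraries and 4 and 8 in the controls.

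Kainate receptors modulate transmitter release and excitability. Of the 5 subunits 4 rose as deposited and Grik5 did not pass, with a median of 0.57 as deposited and −1.04 scaled to the microglia markers. The rises were 1.87-fold in Grik1, 1.51-fold in Grik4, 1.49-fold in Grik3 and 1.28-fold in Grik2. None of these 4 calls was kept in all 6 fits that each left out 1 library. Grik2 had 270.4, 289.8, 269 and 291 in the IRKO libraries, against 211 and 228 in the controls, close together within each group, and its adjusted p of 0.0441 went above 0.05 in each of the 6 fits (the lowest was 0.0576, without IRKO replicate 3) and with DESeq2 (0.0763). Grik3 was at 252 and 434 in the controls, the second of which lay inside the range of the IRKO libraries. Its call was lost without control replicate 1 (0.18, adjusted p = 0.488), without IRKO replicates 2, 3 or 4, and with edgeR (adjusted p = 0.0646). Grik1 averaged 81.3 ± 16.6 in IRKO and 42.8 ± 7.99 in the controls (SD, n = 4 and 2), and lost its call without control replicate 1 (0.71, adjusted p = 0.114). Grik4 averaged 139.6 ± 22.0 in IRKO and 91.3 ± 5.06 in the controls (SD, n = 4 and 2), and lost its call without either control and without IRKO replicates 2 or 4. Grik5, a subunit that needs a partner from Grik1 to Grik3, averaged 2753 ± 181 in IRKO and 2772 ± 175 in the controls (SD, n = 4 and 2), at a log2 change of −0.011 ± 0.112 (adjusted p = 0.942). Grik5 passed as higher under quantile normalization (0.29, adjusted p = 0.0423) and as lower in the microglia scaling (−1.63).

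Grid1 encodes the delta subunit GluD1, which binds cerebellins at synapses. It had 285, 353, 392 and 396 in the IRKO libraries, against 721 and 491 in the controls, so all IRKO values were below both controls. The log2 change was −0.75 ± 0.191 (SE, adjusted p = 0.00896), and the call was lost without control replicate 1 (−0.47, adjusted p = 0.117). Grid1 and Grin3a were the 2 subunits not marked as glial that fell.

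The 7 metabotropic glutamate receptors differed widely among themselves. Of 6 tested genes 3 rose and 1 fell as deposited, where the median was 0.85 (−0.76 scaled to the microglia markers). Grm3, a receptor that lowers cAMP and is strongly expressed by adult astrocytes, had 190.2, 222, 222 and 174 in the IRKO libraries, against 2982 and 2565 in the controls. The groups were far apart and the replicates close, and Grm3 fell 13.7-fold (log2 change −3.77 ± 0.144, SE, adjusted p = 3.06e-07). This lay inside the range of the 10 astrocyte markers, as did the change of Grin2c, and no other subunit did.

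Grm5 acts through calcium release and belongs to neurons and to young astrocytes. It had 529, 663, 584 and 575 in the IRKO libraries, against 319 and 343 in the controls, and rose 1.77-fold without overlap (adjusted p = 0.000642), although it stood at −0.80 when scaled to the microglia markers. Grm2, the closest relative of Grm3, is neuronal. It had 879.6, 767, 728 and 689 in the IRKO libraries, against 233 and 715 in the controls, with the controls 3.07-fold apart, and did not pass (log2 change 0.90 ± 0.351, adjusted p = 0.0532). Without control replicate 2 the call was made (1.71, adjusted p = 0.000392).

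Group III receptors other than Grm6 sit mostly on nerve terminals and lower release. Grm7 had 324, 336, 302 and 279 in the IRKO libraries, against 147 and 137 in the controls, and rose 2.17-fold (adjusted p = 0.000188, and −0.49 on the log2 scale when scaled to the microglia markers). Grm8 had 81.2, 75.9, 91.3 and 73.0 in the IRKO libraries, against 31.5 and 58.1 in the controls. It rose 1.85-fold, and lost its call without control replicate 1 (0.46, adjusted p = 0.191). Grm4, prominent in cerebellar granule cells, had 231, 225, 387 and 386 in the IRKO libraries, against 145 and 413 in the controls. The IRKO values lay between the controls, and Grm4 did not pass (log2 change 0.27 ± 0.394). Grm6, the receptor of retinal bipolar cells, had 0 reads in all 6 libraries, which allows up to 3 reads in each, for counting error only.

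**Figure D2:**
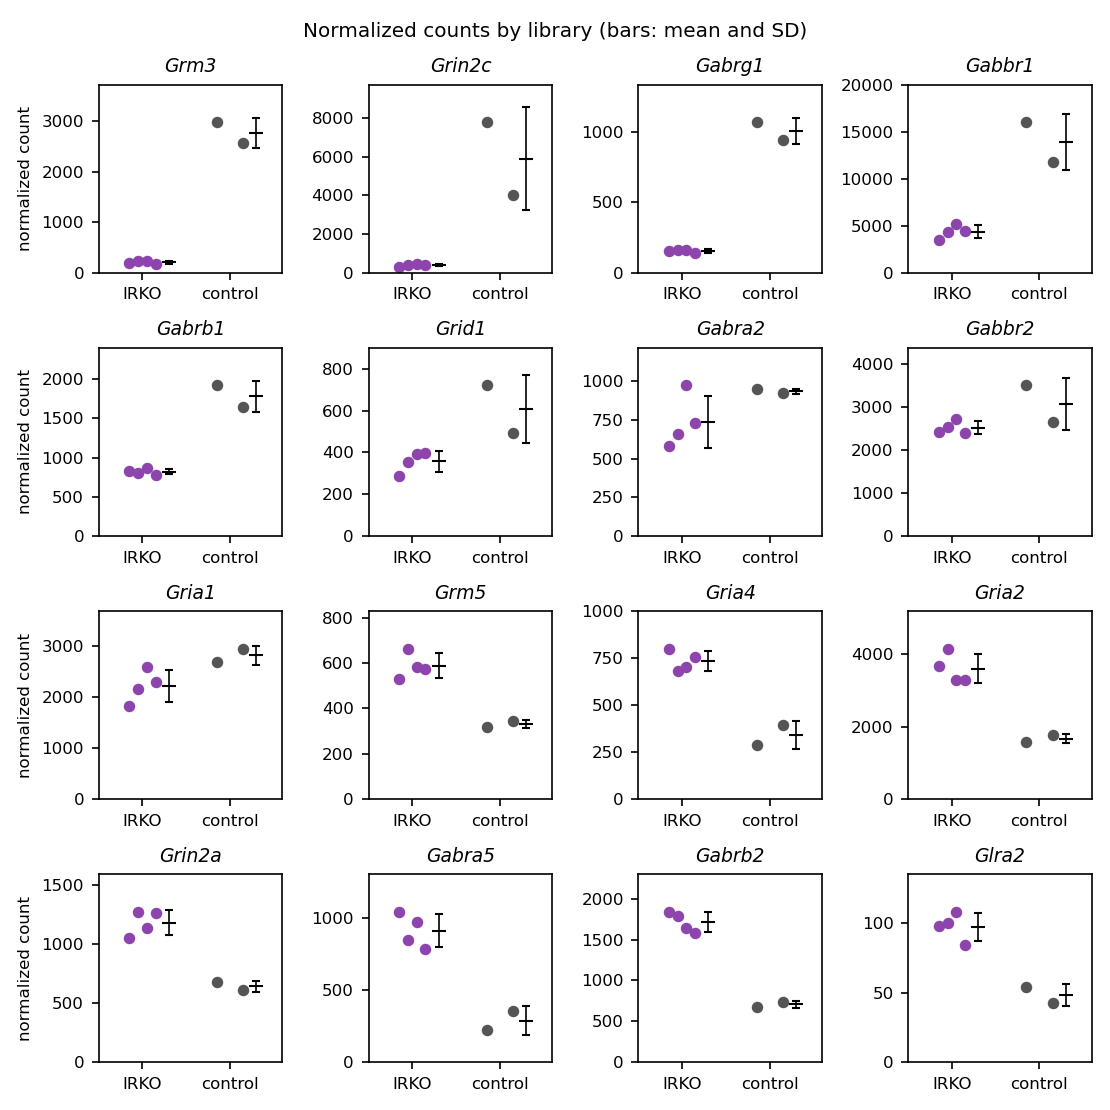
Normalized counts of 16 subunits in each library, with the 4 IRKO libraries left of the 2 controls and the mean and SD beside each group. Each axis starts at 0. For Grm3, Grin2c, Gabrg1, Gabbr1 and Gabrb1 the IRKO points lie far below the controls, for Gabra2 and Gabbr2 the groups overlap, and for Gabra5 and Gabrb2 the IRKO points lie above the controls as deposited.

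GABA-A receptors are chloride channels of 5 subunits, usually alpha and beta with a gamma or delta subunit. Of 9 tested subunits 6 rose, 2 fell and Gabra2 did not pass as deposited, and the median log2 change was 0.71 (−0.91 scaled to the microglia markers). Gabrg1, whose gamma subunit is found in astrocytes and a few neuron groups, had 155, 165, 162 and 137 in the IRKO libraries, against 1069.7 and 939 in the controls. It fell 6.46-fold with narrow spread in both groups (log2 change −2.69 ± 0.139, SE, adjusted p = 8.52e-07). Gabrb1 had 833, 807, 862 and 783 in the IRKO libraries, against 1920.0 and 1641 in the controls. It fell 2.16-fold (adjusted p = 4.94e-05), less than Gabrg1 and also without overlap.

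Gabra2, the alpha subunit of many cortical synapses that astrocytes also express, had 583, 656, 973 and 729.5 in the IRKO libraries, against 947 and 922 in the controls. IRKO replicate 3 lay above both controls and the other 3 below, and Gabra2 did not pass (log2 change −0.37 ± 0.186, adjusted p = 0.116). It passed without IRKO replicate 3 (−0.52, adjusted p = 0.013).

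The other GABA-A subunits were higher in IRKO as deposited. Gabra5, the alpha subunit of extrasynaptic receptors in hippocampus, had 1043, 852, 972 and 785 in the IRKO libraries, against 222 and 359 in the controls. It rose 3.21-fold (log2 change 1.68 ± 0.197, SE, adjusted p = 0.000121). Gabrb2, the most widespread beta subunit of neurons, had 1838, 1791, 1642 and 1581 in the IRKO libraries, against 674 and 741 in the controls, and rose 2.42-fold (adjusted p = 2.24e-05). Gabra3, the alpha subunit of many monoaminergic neurons, had 921, 971, 954 and 734 in the IRKO libraries, against 418 and 425 in the controls, and rose 2.11-fold (adjusted p = 0.000205). In none of these 3 did the groups overlap, and in the microglia scaling Gabrb2 and Gabra3 stood at −0.35 and −0.54.

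Gabrd, which replaces gamma in receptors for tonic inhibition, had 866, 874, 871 and 649.6 in the IRKO libraries, against 353 and 459 in the controls. The first 3 IRKO libraries nearly coincided and replicate 4 was lower, though still above both controls, and Gabrd rose 2.01-fold (adjusted p = 0.000856). Its annotated span overlaps that of Cfap74 by 6000 bases, so reads there could belong to either gene. Gabra4, a frequent partner of Gabrd in forebrain, averaged 525 ± 53.1 in IRKO and 319 ± 14.1 in the controls (SD, n = 4 and 2), and rose 1.64-fold (adjusted p = 0.00173). Gabrg3 averaged 304 ± 17.9 in IRKO and 202 ± 19.2 in the controls (SD, n = 4 and 2). It rose 1.50-fold, a call lost without control replicate 2 (0.49, adjusted p = 0.0517). Scaled to the microglia markers, Gabrd, Gabra4 and Gabrg3 stood at −0.61, −0.91 and −1.03.

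Gabra6, the alpha subunit confined to cerebellar granule cells and a few related nuclei, was below the filter although the labels give whole brain. It had 0, 0, 3 and 2 reads in the IRKO libraries and 0 and 1 in the controls. Cbln3, another gene of granule cells, was also low, with normalized counts of 4.95, 4.93, 4.86 and 3.90 in the IRKO libraries, against 5.62 and 4.84 in the controls. The other 4 markers fixed for granule cells, Cbln1, Neurod1, Etv1 and Zic1, were read in every library and rose as deposited. Cbln1 averaged 267 ± 78.5 in IRKO and 120.3 ± 27.0 in the controls (SD, n = 4 and 2), and Neurod1 averaged 109 ± 34.1 in IRKO and 26.7 ± 3.56 in the controls (SD, n = 4 and 2). Etv1 averaged 663 ± 51.5 in IRKO and 529 ± 30.9 in the controls (SD, n = 4 and 2), and Zic1 averaged 459 ± 125 in IRKO and 275 ± 66.5 in the controls (SD, n = 4 and 2). Etv1 and Zic1 passed limma's test narrowly (adjusted p = 0.0437 and 0.0481). The groups overlapped for Zic1, with IRKO replicate 2 at 284 and control replicate 2 at 322. Scaled to the microglia markers, the median of these 4 markers was −0.70. Whether the reads of Cbln1, Neurod1, Etv1 and Zic1 came from granule cells was not tested, nor was whether cerebellum was part of the extracts.

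The GABA-B receptor needs both of its subunits, Gabbr1 to bind GABA and Gabbr2 to couple to the G protein. Gabbr1 had 3505, 4314, 5169 and 4414 in the IRKO libraries, against 16020.4 and 11772 in the controls. It fell 3.19-fold (log2 change −1.67 ± 0.181, SE, adjusted p = 7.51e-05). Gabbr2 had 2415, 2541, 2716 and 2390.1 in the IRKO libraries, against 3506 and 2643 in the controls, with IRKO replicate 3 above the lower control, and did not pass (log2 change −0.28 ± 0.135, adjusted p = 0.107). It passed without control replicate 2 (−0.48, adjusted p = 0.0296), and its sign turned under quantile normalization (0.024).

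Glycine receptors are chloride channels of alpha subunits joined by the common beta subunit Glrb, which anchors them to gephyrin. Of 3 tested subunits 2 rose as deposited, with a class median of 1.00 (−0.60 scaled to the microglia markers). Glra2, the alpha subunit of developing brain, had 98.1, 99.6, 108 and 83.8 in the IRKO libraries, against 54.0 and 42.6 in the controls, and rose 2.00-fold without overlap (adjusted p = 0.00318). Glra3, the alpha subunit of spinal pain pathways, had 71.3, 72.9, 64.1 and 40.9 in the IRKO libraries, against 36.0 and 15.5 in the controls, so its counts were low. It rose 2.50-fold (adjusted p = 0.015) and lost its call without control replicate 2 (0.74, adjusted p = 0.153). Glrb had 1867, 1794, 1589 and 1234 in the IRKO libraries, against 1416 and 1393 in the controls. Its IRKO values lay on both sides of the controls, and it did not pass (log2 change 0.19 ± 0.165, adjusted p = 0.353), but it passed without IRKO replicate 4 (0.31, adjusted p = 0.0455). Glra1, the adult alpha subunit of spinal cord and brainstem, was below the filter, with 3 reads in each of IRKO replicates 3 and 4 and 0 in the other 4 libraries.

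Ratios between subunits within a library do not change when each library is scaled by a single factor, though quantile normalization can change them. They were chosen after the values had been seen, so they are given without a test, and since counts were not divided by transcript length only their difference between groups can be read. Gabbr1 over Gabbr2 was 1.45, 1.70, 1.90 and 1.85 in the IRKO libraries, against 4.57 and 4.45 in the controls. Thus the ratio of these 2 mRNAs over the whole precipitate differed 2.62-fold between the group means, with narrow spread. Whether it differed within any cell type or receptor was not tested. Gabrg1 over Gabrg3 was 0.498, 0.580, 0.499 and 0.464 in the IRKO libraries, against 4.95 and 4.97 in the controls, a 9.73-fold difference. Gabrb1 over Gabrb2 was 0.453, 0.451, 0.525 and 0.495 in the IRKO libraries, against 2.85 and 2.22 in the controls. In all 3 of these GABA receptor ratios the IRKO libraries lay below the controls without overlap.

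The glutamate receptor ratios were lower in IRKO as well. Gria1 over Gria2 was 0.493, 0.518, 0.782 and 0.697 in the IRKO libraries, against 1.69 and 1.67 in the controls. Grin2c over Grin1 was 0.0985, 0.111, 0.121 and 0.124 in the IRKO libraries, against 4.38 and 1.63 in the controls, so the controls differed between themselves by more than the IRKO libraries did. Grm3 over Grm5 was 0.360, 0.334, 0.381 and 0.303 in the IRKO libraries, against 9.33 and 7.48 in the controls, a 24.4-fold difference between 2 receptors both known from astrocytes. Gabra2 over Gabra4, whose members lie on one chromosome, was 1.22, 1.14, 1.72 and 1.53 in the IRKO libraries, against 3.06 and 2.80 in the controls.

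**Figure D3:**
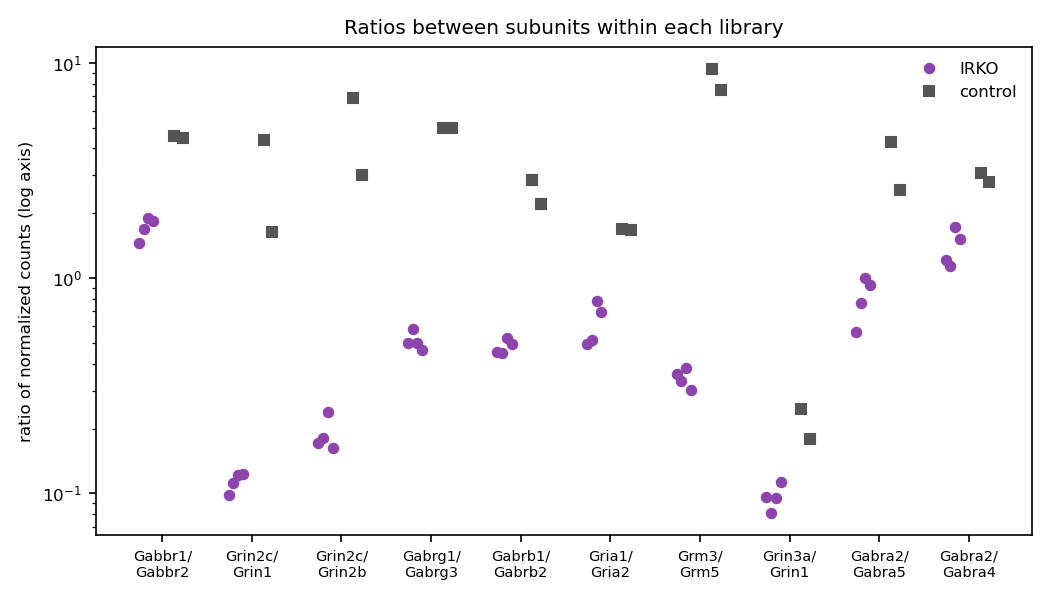
Ratios of the normalized counts of pairs of subunits within each library, on a log axis, with IRKO (purple circles) left of control (grey squares). For all 10 pairs shown, every IRKO ratio lies below both controls, and the group means are 26.4-fold apart for Grin2c over Grin1, 26.3-fold for Grin2c over Grin2b and 24.4-fold for Grm3 over Grm5. The pairs were chosen after the values had been seen. Each has the subunit with the lower log2 change on top, so the shared direction is not a separate result.

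Several GABA-A genes lie next to each other. On mouse chromosome 5 (GRCm38.p6) Gabrg1 (70751047 to 70842617), Gabra2 (70958392 to 71095849), Gabra4 (71569734 to 71658308) and Gabrb1 (71657921 to 72149572) follow one another. Their log2 changes in this order were −2.69, −0.37, 0.71 and −1.11, and scaled to the microglia markers they were −4.31, −1.99, −0.91 and −2.73. The annotated spans of Gabra4 and Gabrb1 overlap by 388 bases. As the strandedness of counting is not given in the sources used here, reads from that overlap could not be told apart, though the 2 genes differed in direction as deposited. On chromosome 7, Gabrg3 (56716463 to 57387215) and Gabra5 (57407669 to 57591016) were both higher as deposited, at 0.59 and 1.68. On chromosome 3, Gria2 (80681450 to 80804227) and Glrb (80843598 to 80913660) lie 39.4 kb apart, with changes of 1.10 and 0.19.

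Genes that assemble and anchor these receptors were described from 3 lists, whose counts stand beside the 26.6% of all tested genes that rose and the 29% that fell. Of 14 auxiliary subunits of AMPA and kainate receptors 8 rose, 2 fell and 4 did not pass as deposited, and their median was 0.80 (−0.81 scaled to the microglia markers). Neto1 and Neto2, auxiliary subunits of kainate receptors, rose 2.17-fold and 2.10-fold. Cacng2, which encodes stargazin, and Cnih2, a cornichon, rose 2.07-fold and 2.05-fold. All 4 turned negative in the microglia scaling, from −0.59 for Cnih2 to −0.50 for Neto1. Shisa9 and Cacng8, a relative of stargazin, fell 2.55-fold and 2.21-fold. Shisa9, an AMPA receptor modulator, had 271, 306, 365 and 343 in the IRKO libraries, against 755 and 880.1 in the controls.

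Of 15 excitatory scaffold genes 6 rose, 2 fell and 7 did not pass as deposited, with a median of 0.53 as deposited and −1.09 scaled to the microglia markers. Homer1, which links Grm5 to calcium stores, rose 2.11-fold and its relative Homer3 fell 2.45-fold (adjusted p = 0.000217 and 0.00231). Dlg4, which encodes PSD-95, and Dlg2 rose 1.49-fold and 1.50-fold. Pick1 fell 1.32-fold and lost its call without control replicate 1 and under quantile normalization (adjusted p = 0.127 and 0.0914). Homer1, Dlg4 and Dlg2 all had negative changes in the microglia scaling.

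Among 7 inhibitory scaffold and GABA-B partner genes 3 rose and 2 fell as deposited, and the list's median was 0.18 (−1.44 scaled to the microglia markers). The 3 that rose were the Kctd genes, which encode auxiliary subunits of the GABA-B receptor. Kctd12 had 5003, 4732, 3357 and 5773 in the IRKO libraries, against 1322 and 1294 in the controls, and rose 3.54-fold, while Gabbr1 fell. The log2 changes of Kctd12, Kctd16 and Kctd8 (1.82, 1.35 and 1.81) lay inside the range of the homeostatic microglia markers, 0.93 to 2.10. Which cells the reads of the Kctd genes came from was not tested. Kctd16 and Kctd8 rose 2.56-fold and 3.50-fold. Kctd8 had few reads, 75, 80, 70 and 37 in the IRKO libraries and 20 and 13 in the controls. In the microglia scaling Kctd12 and Kctd8 stayed above 0 without passing (0.20 and 0.25) and Kctd16 stood at −0.26. Gphn, the gephyrin that clusters glycine and GABA-A receptors, fell 1.50-fold and lost its call without control replicate 1 (adjusted p = 0.0924).

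**Figure D4:**
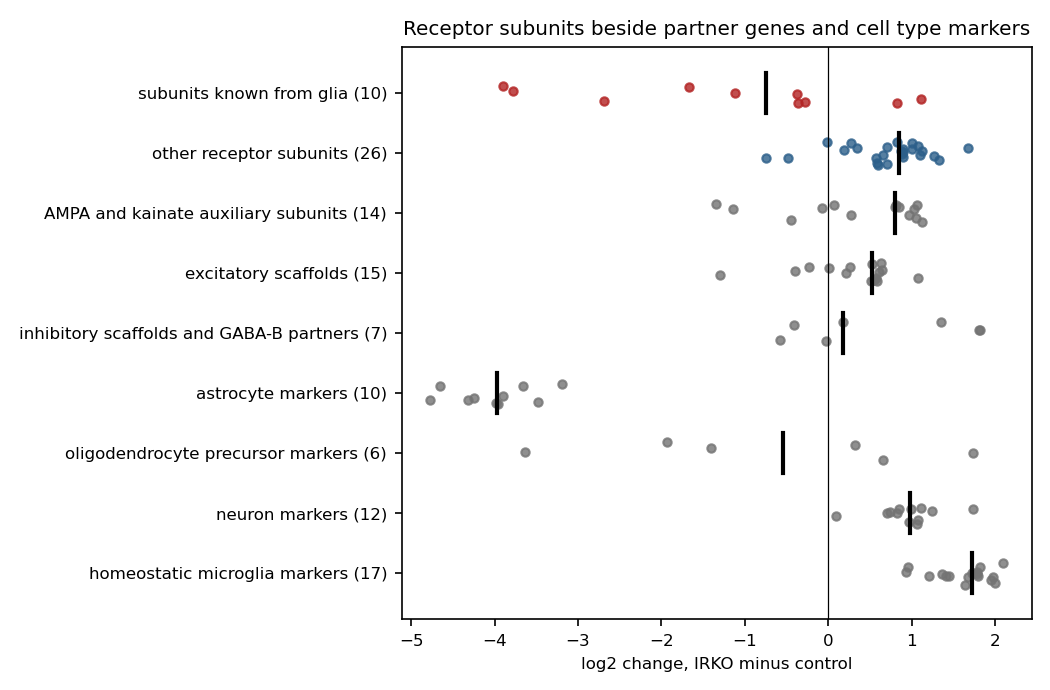
Log2 changes, IRKO minus control as deposited, of the tested receptor subunits, their partner genes and cell type markers, with the number of genes in brackets and black bars at the medians. Grin2c and Grm3 reach the astrocyte markers, most other subunits lie within the wide range of the neuron markers, and no subunit reaches the median of the microglia markers at 1.72. Medians of the oligodendrocyte and endothelial markers, which are not shown, lie in the neuron range too (0.81 and 0.67). Scaled to the microglia markers the medians of all lists but that of the microglia markers are below 0.

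Placed beside the marker lists as deposited, 2 of the 36 tested subunits (Grin2c and Grm3) lay inside the range of the astrocyte markers. The range of the neuron markers, from 0.096 to 1.74, held 25 subunits, and 9 lay between the 2 ranges. Tubb3, which did not pass, set the low end of the neuron range. Medians of the oligodendrocyte and endothelial markers, 0.81 and 0.67, also lay in it, and the share of all tested genes in it was not counted. No subunit rose as much as the median microglia marker, at 1.72, and 27 were below the lowest of the 17 microglia markers. These positions are descriptions of values from the same 6 libraries and were not tested.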

How the data were processed

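The deposited values are a signal per gene, read counts divided by 1 size factor per sample, as the values themselves show. Divided by the value of 1 read in its library, every value came out whole within 0.05 reads (100%), and in IRKO replicate 1 a read was worth 0.991, too near 1 for a formal step test. Bowtie2 and GRCm38.p6 are named per the submitters' processing notes, while the counting and normalization tools were not given in the sources used here. Coordinates are those of the RefSeq gene table of GRCm38.p6, which held all 40 symbols.

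The 14698 of 18887 genes that reached a normalized count of 10 in 2 or more samples were tested on log2(value + 1) with limma 3.58.1 in R 4.3.3, with a mean-variance trend and IRKO minus control as the contrast. P-values are two-sided, from limma unless another tool is named, and Benjamini-Hochberg adjusted over all tested genes with a threshold of 0.05. The fit was tested on simulated data. Within groups, pairs of libraries differed by more than sampling noise (chi-square per degree of freedom 17.0 to 37.9). The members, the gene lists and the subunits marked as glial were chosen with earlier results of these data known. Named genes were the tested members by class and, in each partner list, up to 4 per direction with the smallest p, apart from 2 genes of the partner lists that are not reported here. The alternatives comprised a pseudocount of 0.5 or 5, a filter at 50 or none, scaling by TMM, by quantiles or to 17 microglia markers, a fit without the variance trend, a replicate block, count tests on recovered reads (edgeR 4.0.16, DESeq2 1.42.0), and leaving out each library. Both count tests were also run without IRKO replicate 1, an alternative chosen after seeing the data.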

Additional observations from a re-analysis of the deposited data

Results flagged for a closer look

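In 2 of 52 genes checked, 1 of the 4 IRKO libraries lay far from the other 3 by Dixon's test, which flags about 1 in 20 groups by chance. Gabrd was at 649.6 normalized counts in IRKO replicate 4, against 866 to 874 in the other IRKO libraries. Neto1 was at 574 in IRKO replicate 3, against 539 to 542 in the others.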

How the results depend on the processing

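The 22 rises and 7 falls among receptor subunits stayed within 1.5 times under every setting run except scaling to the microglia markers, where 0 rose and 28 fell and the median log2 change was −0.94. In that scaling 40 of all genes rose and 12383 fell, against 3911 and 4262 as deposited. Changes that turned negative there were Gria2 −0.52, Gria3 −0.72, Gria4 −0.50, Grin1 −0.96, Grin2a −0.75, Grin2b −0.92, Grin2d −0.78, Grik1 −0.69, Grik2 −1.26, Grik3 −1.04, Grik4 −1.01, Grm2 −0.72, Grm4 −1.34, Grm5 −0.80, Grm7 −0.49, Grm8 −0.71, Gabra3 −0.54, Gabra4 −0.91, Gabrb2 −0.35, Gabrg3 −1.03, Gabrd −0.61, Glra2 −0.60, Glra3 −0.25, Glrb −1.43, Neto2 −0.55, Neto1 −0.50, Cacng2 −0.57, Cnih2 −0.59, Homer1 −0.54, Dlg2 −1.03, Dlg4 −1.04 and Kctd16 −0.26. Under quantile normalization the median was 0.79, Gabbr2 turned to 0.024 and Grik5 to 0.29. Leaving out 1 library at a time gave 15 to 21 rises, 5 to 9 falls and a median of 0.50 to 0.79, where 2802 to 3668 of all genes rose and 3248 to 4152 fell. The fewest rises came without control replicate 1, for the subunits and for all genes. Of the 29 calls, 18 (13 rises and 5 falls) were kept without each library and 11 were lost without at least 1. How many of all tested genes kept their call in this way was not counted. Without 1 library, Grik5 ran from −0.075 to 0.054, and Grm4 from −0.48 to 1.03, both ends set by the controls. Grik5 turned to 0.055 with edgeR and 0.041 with DESeq2 on 5 samples. The cause of these changes was not tested.

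With the replicate number as a block 17 subunits rose and 9 fell, with a median of 0.60, and Grm4 turned to −0.11. Replicates 3 and 4 exist only in IRKO, so this contrast rests on replicates 1 and 2 of each group. The block left 6 rises above the threshold, Grin2d (adjusted p = 0.119), Grik1 (adjusted p = 0.118), Grik2 (adjusted p = 0.126), Grik3 (adjusted p = 0.125), Grik4 (adjusted p = 0.108) and Grm8 (adjusted p = 0.0831), and brought Gria1 (0.0174), Gabra2 (0.0153) and Glrb (0.0404) under it. Over all genes 3244 rose and 3691 fell with the block. Deviations of same-numbered libraries correlated at −0.0824 and 0.0790, so the numbers gave no sign of pairing. edgeR and DESeq2 on the recovered reads both gave 21 rises and 7 falls, and on 5 samples both gave 20 and 7, without Grik2 and Grm8. Over all genes edgeR gave 3836 rises and 4232 falls, and DESeq2 gave 3845 and 4148. On 5 samples edgeR gave 3711 and 3994 over all genes, and DESeq2 gave 3597 and 3984. With no filter 20 rose and 7 fell of 39 subunits with a read, without Grik2 and Grik3, beside 3814 rises and 4308 falls among 17970 genes. Without the variance trend Grik3 was lost (adjusted p = 0.0882). Subunits with few reads, such as Glra3, Grik1 and Grm8, are those where depth limits precision most.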

Other observations

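The 2 controls differed from each other in a few subunits by more than most genes did. The median gene differed 1.15-fold between them and the median tested subunit 1.17-fold. Grm2 and Grm4 were 3.07-fold and 2.85-fold higher in control replicate 2 than in control replicate 1, and Grm8 was 1.84-fold higher. Cacng5, an AMPA receptor auxiliary subunit, had 194, 202, 176 and 284 in the IRKO libraries, against 129 and 637 in the controls. Grin2c was lower in control replicate 2, at 4015 against 7785 normalized counts. These genes were chosen after their values were seen.

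Dlgap1, a scaffold of the postsynaptic density that did not pass limma's test, had 10434, 9679, 4780.0 and 3962 in the IRKO libraries, against 4389 and 4794 in the controls. The first pair of IRKO libraries was above both controls and the second pair lay near them, and the gene was chosen after its values were seen.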
